A study of Homo sapiens with 9 samples.

Results

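Glucose import, glycolysis and the transcriptional response to low oxygen were followed through 40 genes in NLF, a human neuroblastoma cell line, after knockdown of the transcription factor TBX2 or of its antisense RNA TBX2-AS1. The genes were chosen by symbol, with earlier results of these data known. Each of the 40 matched 1 row among the 57757 gene IDs of the count table. RNA was sequenced after 48 hours of siRNA in 3 groups of 3 biological replicates, in which the siRNA was a non-targeting control (siNTC) or was directed at TBX2 (siTBX2) or at TBX2-AS1 (siTBX2-AS1). All groups are the same line with the genotype label WT and differ by label in the siRNA alone. The cells were grown in ordinary culture with no low-oxygen arm, so levels of hypoxia genes are those of cells that were not exposed to low oxygen as a treatment. The labels name 1 line and 1 siRNA label for each target, and a second siRNA was not analysed here.

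Glycolysis begins when glucose transporters of the SLC2A family admit glucose and hexokinase phosphorylates it, and it ends with pyruvate, which lactate dehydrogenase reduces to lactate or pyruvate dehydrogenase passes to the mitochondria. Pyruvate dehydrogenase kinases (PDK) switch off that last step. The glycerol phosphate shuttle, in which GPD2 is the mitochondrial enzyme, carries electrons from cytosolic NADH into the respiratory chain. Hypoxia-inducible factors, built on HIF1A or EPAS1 (HIF-2α), are degraded after prolyl hydroxylation by the EGLN enzymes when oxygen is present, and they raise many of the genes above when it is scarce. Neuroblastoma tumours and lines are known to express both HIF1A and EPAS1.

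Libraries held 31894280 to 51434090 counts, and 18367 genes passed a filter on low counts and were tested. Levels are given in counts scaled to library size (CPM) or, between genes, in the authors' FPKM, which is also scaled to transcript length. Fold changes are log2 values with their standard error (SE). A gene is called, and said to have risen or fallen, where the adjusted p of edgeR's quasi-likelihood F test (Benjamini-Hochberg over all tested genes) was under 0.05. TBX2 was at 275.9, 254.3 and 249.4 CPM in siNTC and at 127.4, 110.1 and 112.9 CPM in siTBX2, and TBX2-AS1 was at 37.52, 34 and 37.43 CPM in siNTC and at 4.713, 5.872 and 0.714 CPM in siTBX2-AS1. Both targets were thus lower in the groups labelled with them in every library. TBX2 was at 173.5, 228 and 224.3 CPM in siTBX2-AS1, also below every siNTC library but not called (-0.32, adjusted p = 0.172 in edgeR). Of 11 adrenergic neuroblastoma markers, 10 passed the filter, with a summed level of 878 to 971 CPM in siNTC, 972 to 1095 CPM in siTBX2 and 901 to 1015 CPM in siTBX2-AS1. Of the 10 markers, 5 had positive and 5 negative fold changes in siTBX2 and in siTBX2-AS1, and MYCN alone was called: it was at 263 CPM in siNTC, 433 in siTBX2 and 346 in siTBX2-AS1 (0.72 and 0.39; between the knockdowns -0.32, adjusted p = 0.0485). Its part in the results was not tested. The marker TH, the rate-limiting enzyme of catecholamine synthesis, was at 0 in every library. Markers of Schwann cells, endothelium and leukocytes summed to at most 2.57 CPM in any library, those of epithelium to at most 11.9 CPM, and 5 fibroblast markers (COL1A1, COL1A2, COL3A1, DCN and PDGFRA), which mesenchymal neuroblastoma cells can also express, to 844 to 1285 CPM. Of these 5, COL1A1 alone was called, higher in siTBX2-AS1 (20%, against 4.57% of all tested genes). There 3 had positive and 2 negative fold changes, and none was called in siTBX2 or between the knockdowns.

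Few of the 40 genes passed the test, and the calls of all 3 comparisons fell on 4 genes. In siTBX2, HK2 and KDM3A rose and GPD2 fell. In siTBX2-AS1, SLC2A3 rose and GPD2 fell. Between the knockdowns, SLC2A3 was higher and HK2 and KDM3A were lower in siTBX2-AS1 than in siTBX2. This fit leaves out the replicate number. With that number as a block, the calls were 4, 6 and 6 in the 3 comparisons, as given at the end. In a bulk culture, fewer cells that express a gene and less RNA per cell cannot be told apart.

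The filter kept 39 of the 40 genes. CA9, a carbonic anhydrase that is among the most used markers of hypoxia, was left out with 0 to 6 counts per library. Because the genes were chosen with earlier results of these data known, the shares below only describe them and do not test the pathway. In siTBX2, 3 of the 39 were called (7.69%), against 1.61% of all tested genes, of which 0.795% were higher and 0.811% lower. In the fits without 1 library that count was 1 to 3. In siTBX2-AS1, 2 of 39 were called (5.13%), a share near the background of 4.57% (1.79% higher and 2.78% lower). For siTBX2-AS1 against siTBX2 the count was 3 of 39 (7.69%), against 5.53% (2.03% higher and 3.5% lower). At an unadjusted p under 0.05 the counts were 7, 10 and 10 of 39, against 16%, 18.4% and 20.1% of all tested genes. The log2 fold change was positive for 22 of the 39 in siTBX2, with a median of 0.02, and for 29 in siTBX2-AS1, with a median of 0.12. Over all tested genes the medians were 0.00 and 0.01. Libraries of the knockdown and of siNTC did not overlap for 10 genes in siTBX2 (25.6%, against 22.8% of all tested genes) and for 12 in siTBX2-AS1 (30.8%, against 24%). The 2 knockdowns did not overlap for 9 genes (23.1%, against 26.7%). Both comparisons share the siNTC libraries, so their values are set side by side below and not read as independent. The plot of fold changes by role gives the 39 tested genes in the 3 comparisons.

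**Figure D1:**
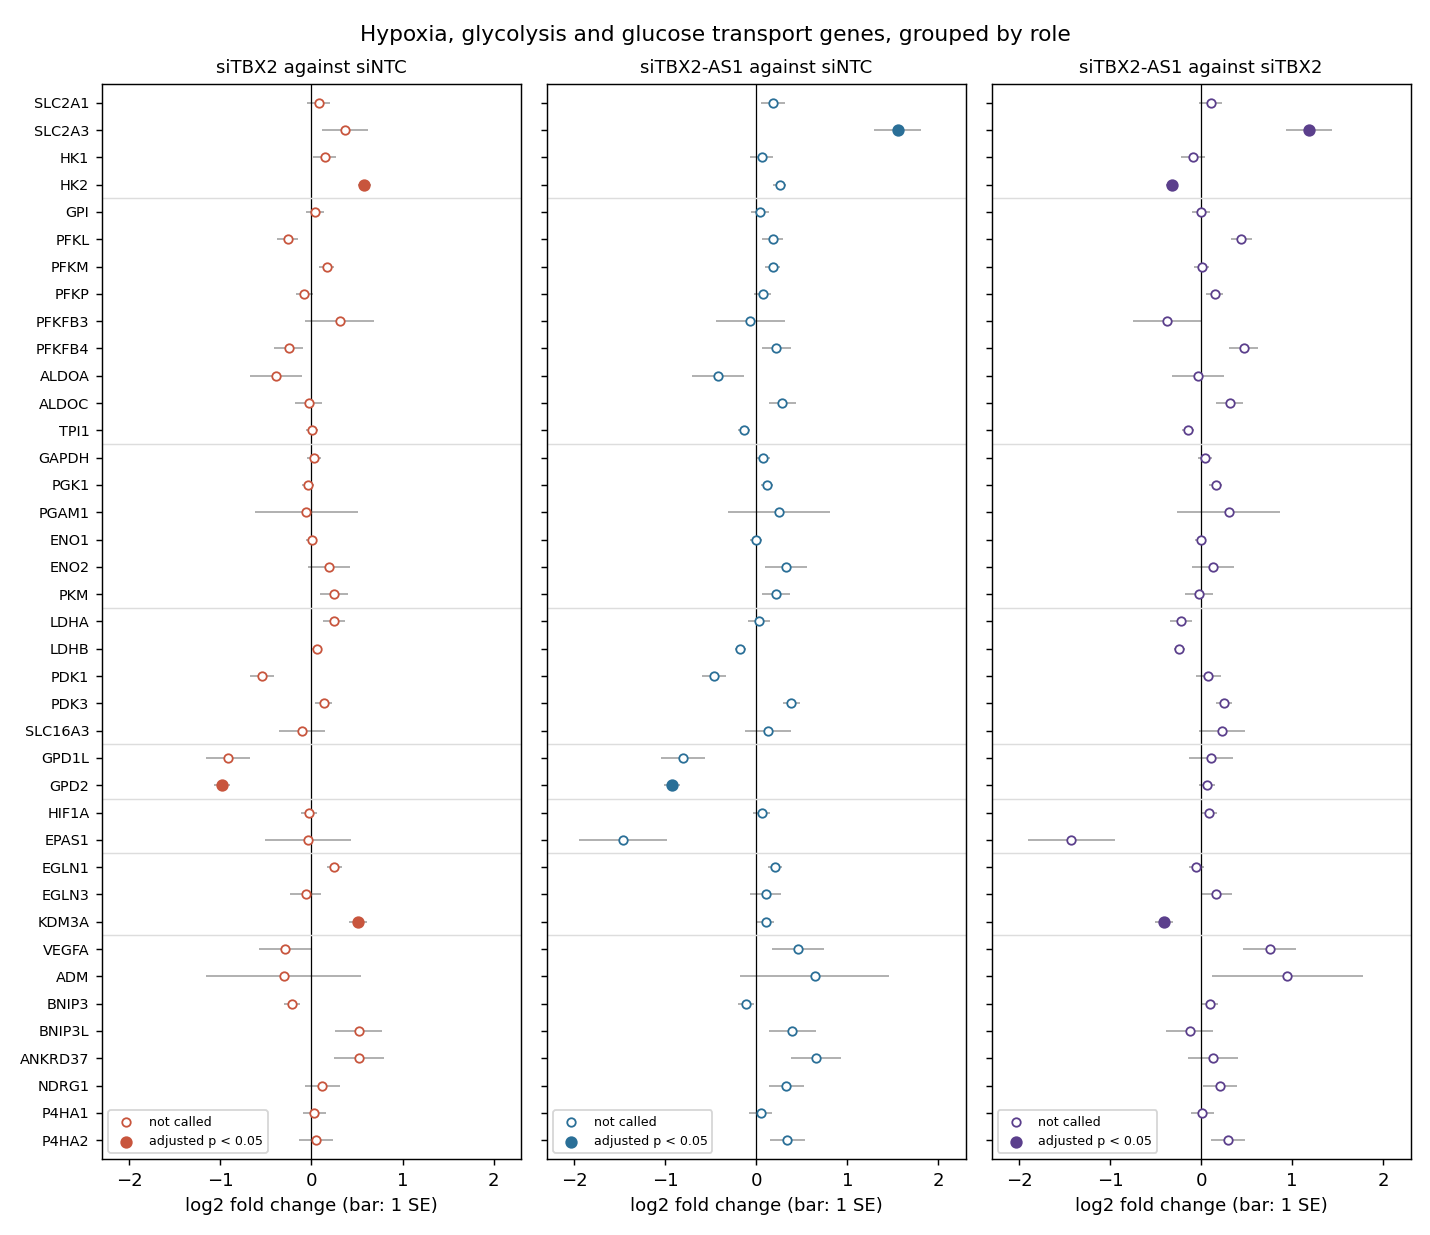
Log2 fold changes of the 39 tested genes, grouped by role, in the 3 comparisons; bars are 1 SE and filled points are genes called at an adjusted p under 0.05 in edgeR. SLC2A3 (1.55) and GPD2 (-0.92) are filled in siTBX2-AS1, HK2 (0.58), KDM3A (0.51) and GPD2 (-0.99) in siTBX2, and EPAS1 (-1.46) lies far to the left in siTBX2-AS1 with a long bar.

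Per transcript length, genes of the lower part of the pathway were the highest. In siNTC, GAPDH was highest at 1604 ± 42.9 FPKM (SD, n = 3), followed by ENO1 at 688 ± 26.1 and LDHB at 678 ± 45.5 FPKM, neighbours that do not differ beyond their spread. PKM (389 ± 75.3 FPKM) and TPI1 (360 ± 28.2 FPKM) came next, also within their spread, and then PGK1 (194 ± 12.1 FPKM), LDHA (147 ± 5.87 FPKM) and ALDOA (128 ± 17.2 FPKM). The gates of the pathway were expressed at far lower levels: HK1 at 17 ± 2.33, HK2 at 11.7 ± 0.529, SLC2A1 at 9.62 ± 1 and SLC2A3 at 2.18 ± 0.244 FPKM. HIF1A stood at 36.2 ± 4.18 and EPAS1 at 4.47 ± 2.08 FPKM. Among hypoxia targets, VEGFA was at 2.67 ± 0.325 FPKM and ADM at 0.114 ± 0.0842 FPKM. The plot of FPKM in all libraries shows the same span in every group.

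**Figure D2:**
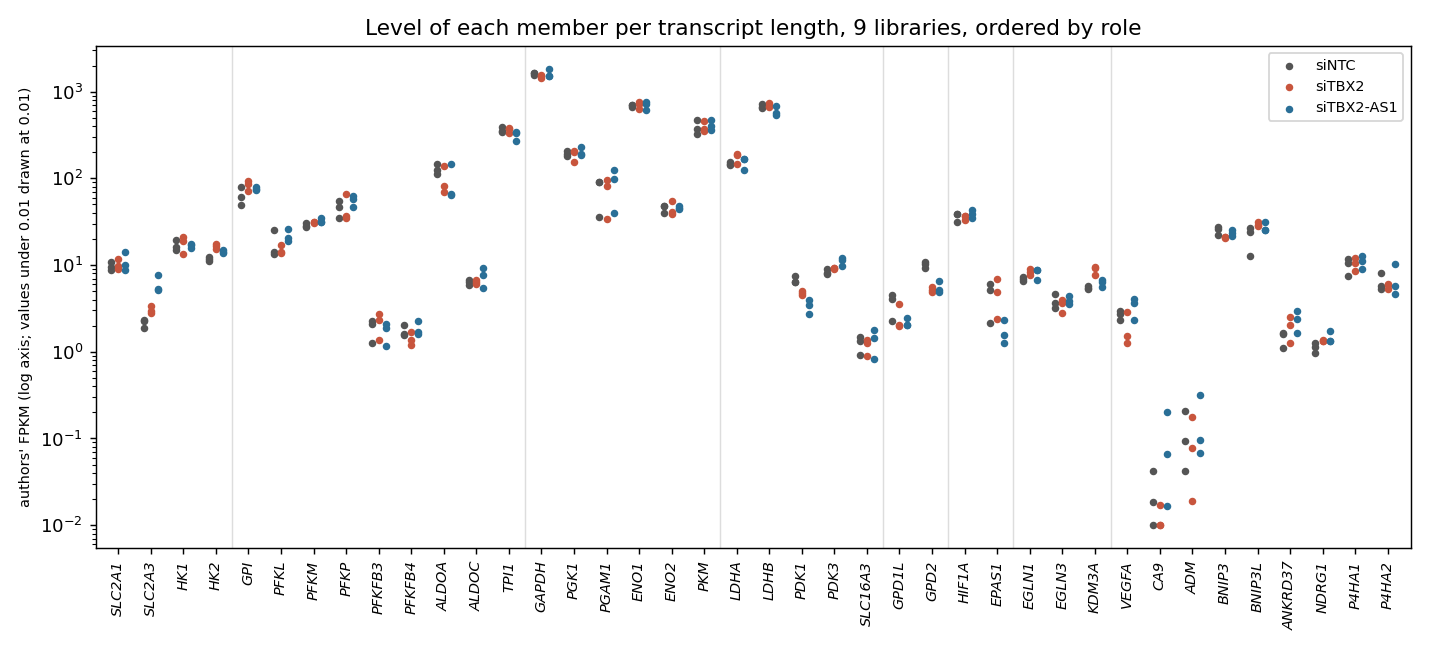
FPKM of the 40 genes in each of the 9 libraries on a log axis, grouped by role, with values under 0.01 drawn at 0.01. GAPDH, ENO1 and LDHB are the highest in siNTC (1604, 688 and 678 FPKM), CA9 and ADM the lowest, and the colours mostly overlap within a gene.

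Glucose entry and phosphorylation held 2 of the 4 called genes. SLC2A3 encodes GLUT3, a high-affinity glucose transporter typical of neurons (ENSG00000059804.11, minus strand of chromosome 12 from 7919230 to 7936275; gene positions here are those of GENCODE release 29 on GRCh38). It was at 11.66, 9.283 and 13.4 CPM in siNTC, at 13.98, 16.34 and 13.94 CPM in siTBX2 and at 45.03, 34.09 and 21.51 CPM in siTBX2-AS1. Every siTBX2-AS1 library lay above the other 6, and the lowest of them, at 21.51, was near the highest siTBX2 library. SLC2A3 rose in siTBX2-AS1 by 1.55 (SE 0.26, adjusted p = 0.0127 in edgeR), and its value in siTBX2 was 0.37 (SE 0.25, adjusted p = 0.543). It was also higher in siTBX2-AS1 than in siTBX2 (1.19, SE 0.25, adjusted p = 0.032). The call against siNTC was lost without siNTC replicate 2 (adjusted p = 0.0527), and the call against siTBX2 was lost without siNTC replicate 1, any siTBX2 replicate, or siTBX2-AS1 replicate 1 or 2 (adjusted p up to 0.107), and with siNTC left out of the fit. SLC2A14, a near-identical neighbour whose reads can be exchanged with those of SLC2A3, had 14 to 48 counts in siNTC, 30 to 36 in siTBX2 and 45 to 115 in siTBX2-AS1, against 400 to 594, 636 to 684 and 693 to 2331 counts for SLC2A3.

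SLC2A1 encodes GLUT1, the transporter of most cultured cells and a classical HIF target. Its levels were 48.7, 48.85 and 57.1 CPM in siNTC, 53.6, 50.56 and 59.2 CPM in siTBX2 and 52.97, 53.53 and 69.35 CPM in siTBX2-AS1. The groups overlapped, with fold changes of 0.08 (adjusted p = 0.84) and 0.18 (adjusted p = 0.521) in edgeR. As a share of the summed FPKM of SLC2A1 and SLC2A3, SLC2A3 made up 18.4% ± 0.943 in siNTC, 22.9% ± 1.39 in siTBX2 and 35.9% ± 8.05 in siTBX2-AS1 (SD, n = 3). The exact two-sided permutation test gave p = 0.1 for each pair of groups, the smallest that 3 against 3 libraries allow. It was run on 8 such shares in 3 comparisons, 24 tests in all, and the smallest adjusted p was 0.4.

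HK2 encodes hexokinase 2, the inducible hexokinase that binds mitochondria and is prominent in tumours (ENSG00000159399.5, plus strand of chromosome 2 from 74833981 to 74893359). Its libraries read 101.9, 111.9 and 104.5 CPM in siNTC, 164.4, 162.3 and 148.4 CPM in siTBX2 and 124.6, 130.8 and 125.4 CPM in siTBX2-AS1. No library of one group overlapped another group, and siTBX2-AS1 lay between the other two. HK2 rose in siTBX2 by 0.58 (SE 0.07, adjusted p = 0.0121 in edgeR). Its value in siTBX2-AS1 was 0.26 (SE 0.07, adjusted p = 0.0814), and it was lower there than in siTBX2 (-0.32, SE 0.07, adjusted p = 0.0358). The rise was not called without siNTC replicate 1 or without siTBX2 replicate 1 (adjusted p up to 0.0581), and the difference between knockdowns was lost without siNTC replicate 3, siTBX2 replicate 1 or 2, or any siTBX2-AS1 replicate (adjusted p up to 0.121). Neither call was made by limma on the authors' FPKM or by edgeR with the third group left out. HK1, the constitutive hexokinase, was at 83.33 to 104.3 CPM in siNTC, 87.88 to 119.1 in siTBX2 and 89.96 to 103.3 in siTBX2-AS1. HK2 formed 41.0% ± 3.11 of the summed FPKM of both hexokinases in siNTC, 48.9% ± 7.37 in siTBX2 and 46.1% ± 1.94 in siTBX2-AS1, and siTBX2 libraries overlapped siNTC on that scale (exact permutation p = 0.3). The siTBX2-AS1 libraries, at 43.9 to 47.5%, lay above siNTC, at 37.4 to 42.9% (exact permutation p = 0.1, the smallest possible).

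The promoter of HK2 is shown because HK2 and KDM3A are the genes that rose in siTBX2 and both are textbook HIF targets. The window runs from 250 bases before to 50 after the RefSeq start (GRCh38.p14, chr2:74833877-74834176, plus strand), and capitals mark the core letters of the hypoxia response element, ACGTG or GCGTG on either strand, so that CACGT is ACGTG read on the minus strand.
HK2: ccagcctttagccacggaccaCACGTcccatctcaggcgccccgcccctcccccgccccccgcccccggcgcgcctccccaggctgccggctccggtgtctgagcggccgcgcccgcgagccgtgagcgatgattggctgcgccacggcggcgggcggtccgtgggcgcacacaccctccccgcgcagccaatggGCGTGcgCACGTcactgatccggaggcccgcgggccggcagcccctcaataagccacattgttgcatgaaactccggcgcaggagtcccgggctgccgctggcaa
KDM3A: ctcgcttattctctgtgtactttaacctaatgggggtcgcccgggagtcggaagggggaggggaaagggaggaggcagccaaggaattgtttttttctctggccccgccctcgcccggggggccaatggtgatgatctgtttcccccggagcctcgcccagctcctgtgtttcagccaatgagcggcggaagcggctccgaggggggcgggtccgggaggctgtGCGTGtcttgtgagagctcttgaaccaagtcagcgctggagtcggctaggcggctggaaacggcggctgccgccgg
The KDM3A window lies at chr2:86441121-86441420 on the plus strand. HK2 holds ACGTG at -229 and -48 on the minus strand and GCGTG at -55 on the plus strand, counted from the start, and KDM3A holds GCGTG at -26. Windows were matched for 36 of the 40 genes, and none was available for SLC2A3, VEGFA, BNIP3L and NDRG1. The called gene SLC2A3 is thus outside this count. ACGTG was found on either strand in 15 of the 36 (41.7%), against 26.3% of 11647 tested genes, and GCGTG in 18 (50%), against 50.3%. Either was present in 26 (72.2%), against 62.7% of tested genes. CACGTG reads the same on both strands, so each one gives an ACGTG match on either strand. LDHA held 5 ACGTG matches, with 2 CACGTG among them, and PGK1 held 3 with no CACGTG. ALDOC and ANKRD37 held 3 matches each, with 1 CACGTG in each. CACGTG, which contains ACGTG, was in 5 of 36 (13.9%, against 9.93%), and GGTGTGA, the core of a T-box site, in PGAM1 and P4HA1 only, 2 of 36 (5.56%, against 2.91%). The GPD2 window held none of these letters. The part of these promoter letters in the values of HK2, KDM3A or any other gene was not tested.

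None of the 9 genes of upper glycolysis was called in any comparison. PFKL, PFKM and PFKP encode the liver, muscle and platelet subunits of phosphofructokinase, the committed step. PFKL came nearest, at 73.71 to 77.36 CPM in siTBX2 and 99.08 to 110 CPM in siTBX2-AS1 (difference between knockdowns 0.44, SE 0.12, adjusted p = 0.0653 in edgeR). Fold changes against siNTC were -0.08 (siTBX2) and 0.07 (siTBX2-AS1) for PFKP, whose sign in siTBX2 turned without siNTC replicate 1 (0.02), and 0.17 and 0.18 for PFKM. PFKFB3 and PFKFB4, which make the activator fructose 2,6-bisphosphate, were at 6.088 to 18.52 and 4.944 to 9.156 CPM over the 9 libraries. The aldolase ALDOA ranged from 252.9 to 315.2 CPM in siNTC, 162.1 to 289.4 in siTBX2 and 158.9 to 304.5 in siTBX2-AS1, so that 1 library of each knockdown lay among the controls and the others below. The isomerase genes GPI and TPI1 had fold changes from -0.14 to 0.04 against siNTC.

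None of the 6 genes of lower glycolysis was called either. GAPDH, which oxidises glyceraldehyde 3-phosphate, had log2 fold changes of 0.02 in siTBX2 and 0.07 in siTBX2-AS1. ENO1, the main enolase, read 1908 to 2038 CPM in siNTC, 1819 to 2116 in siTBX2 and 1955 to 2027 in siTBX2-AS1, and PGK1, the first ATP-making step, had -0.04 and 0.12. The sign of GAPDH was not stable: in siTBX2 it turned on the FPKM scale (-0.089), and in siTBX2-AS1 it turned without siTBX2-AS1 replicate 1 (-0.015). ENO2, the neuronal enolase, and PKM, pyruvate kinase, had log2 fold changes of 0.19 and 0.24 after TBX2 knockdown and of 0.33 and 0.22 after TBX2-AS1 knockdown, with adjusted p from 0.503 to 0.765. PGAM1 was low in 1 library of every group (93.95, 85.82 and 103.3 CPM, against 226.8 to 323.3 CPM in the other 6), and those were siNTC replicate 1, siTBX2 replicate 3 and siTBX2-AS1 replicate 1. Its near-identical copy PGAM4 had 25 to 235 counts and the summed counts of both were 4070 to 5581 in those 3 libraries and 9635 to 12588 in the other 6. Several of these enzymes have processed pseudogenes that can take reads, so their levels carry that uncertainty.

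At the pyruvate branch none of 5 genes was called, and the estimates of PDK1 and PDK3 had opposite signs. LDHA, the lactate-forming subunit and a HIF target, was at 361.8, 365.1 and 409.3 CPM in siNTC, 472.4, 383.1 and 494.5 CPM in siTBX2 and 435, 344.9 and 379.6 CPM in siTBX2-AS1. The groups overlapped (0.25, adjusted p = 0.343, and 0.03, adjusted p = 0.929, in edgeR). LDHB was at 1233 to 1257 CPM in siNTC, 1272 to 1359 in siTBX2 and 1025 to 1146 in siTBX2-AS1, without overlap, and its difference between knockdowns was -0.24 (SE 0.06, adjusted p = 0.0506). PDK1, a HIF target that inhibits pyruvate dehydrogenase, was at 61.65, 49.8 and 48.45 CPM in siNTC, 39.87, 39.54 and 30.35 CPM in siTBX2 and 38.07, 39.56 and 38.52 CPM in siTBX2-AS1. All 6 knockdown libraries lay below the 3 controls, with fold changes of -0.54 (SE 0.13, adjusted p = 0.0928) and -0.46 (SE 0.13, adjusted p = 0.099). PDK1 was called in siTBX2-AS1 with DESeq2 and with limma on FPKM with a filter. Its value there was -0.98 to -0.45 over the other settings. In siTBX2 it was called with DESeq2 and with the replicate number as a block. It was called in no fit without 1 library. PDK3 was at 26.02, 23.51 and 23.49 CPM in siNTC, 27.01, 27.33 and 25.74 CPM in siTBX2 and 34.25, 30.42 and 30.67 CPM in siTBX2-AS1. Every siTBX2-AS1 library was above the others, at 0.38 over siNTC (SE 0.09, adjusted p = 0.0528). SLC16A3, the lactate exporter MCT4, was low throughout at 2.864 to 5.246 CPM.

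GPD2 was the one gene of the 40 called in both knockdowns against siNTC (ENSG00000115159.11, plus strand of chromosome 2 from 156435290 to 156613735). It was at 83.28, 77.65 and 85.59 CPM in siNTC, at 41.78, 40.52 and 42.19 CPM in siTBX2 and at 39.98, 42.7 and 47.52 CPM in siTBX2-AS1. The 6 knockdown libraries lay in a narrow band far below the 3 controls. GPD2 fell by 0.99 in siTBX2 (SE 0.09, adjusted p = 0.00589 in edgeR) and by 0.92 in siTBX2-AS1 (SE 0.09, adjusted p = 0.00117), and the difference between knockdowns was 0.06 (SE 0.09, adjusted p = 0.758). Both calls were kept in all 9 fits that left out 1 library, and were lost only with limma on log2(FPKM + 1) without a filter (adjusted p = 0.131 and 0.0544). GPD1L, a relative of the cytosolic glycerol 3-phosphate dehydrogenase, was at 23.8, 13.07 and 27.9 CPM in siNTC, 11.29, 11.25 and 11.71 CPM in siTBX2 and 11.01, 12.86 and 13.19 CPM in siTBX2-AS1. Here siNTC replicate 2 lay near the knockdown libraries. GPD1L was not called (-0.92, SE 0.24, adjusted p = 0.109, and -0.81, SE 0.24, adjusted p = 0.108), but was called in both without siNTC replicate 2, at -1.19 (adjusted p = 0.0144) and -1.08 (adjusted p = 0.00802).

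**Figure D3:**
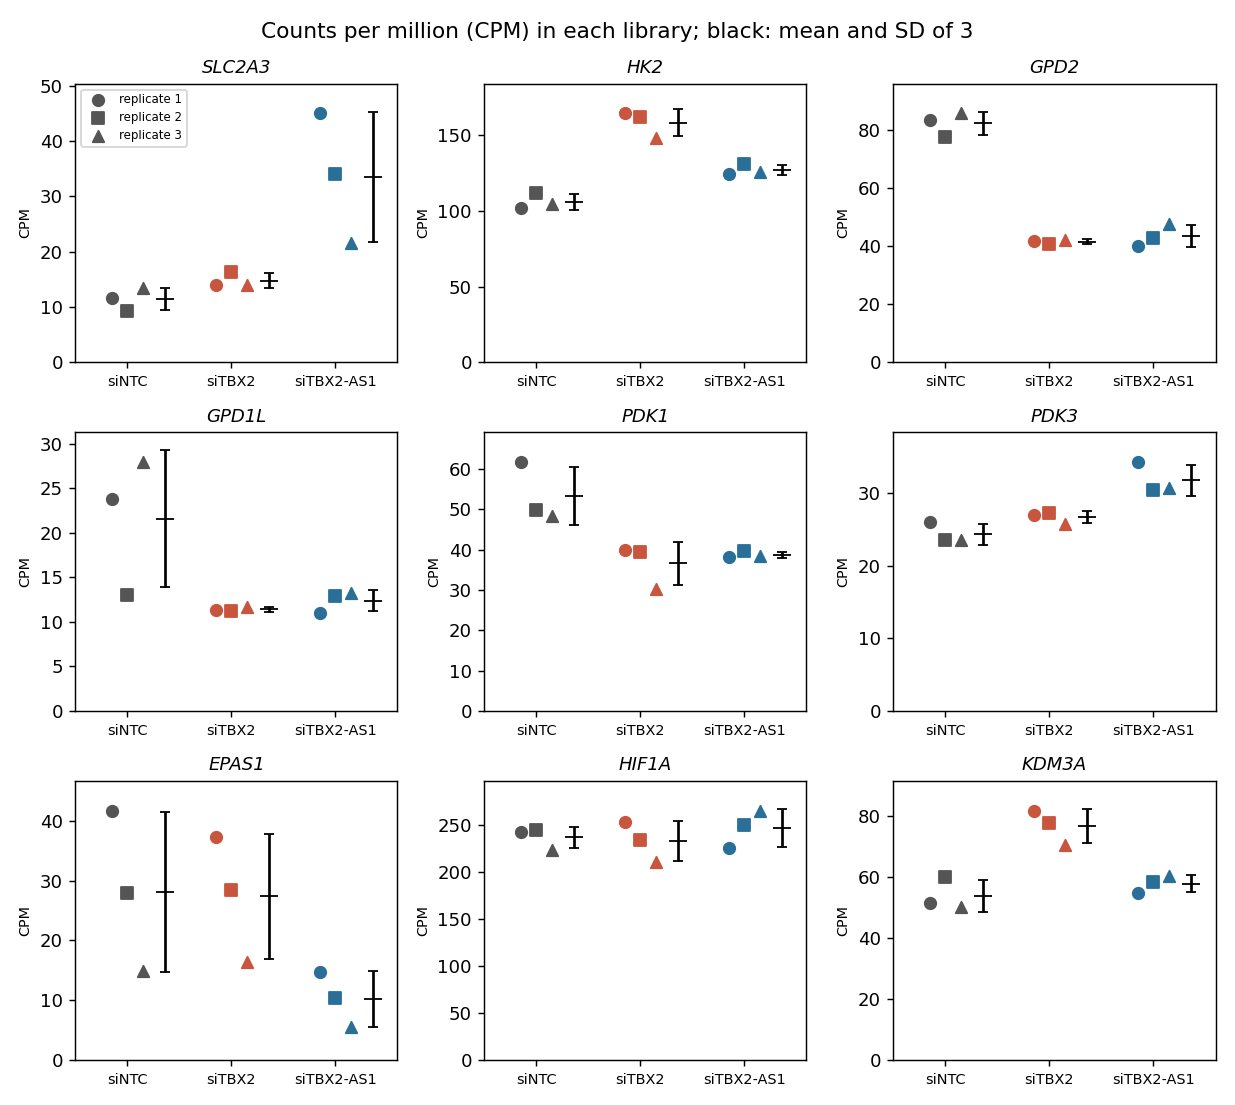
CPM of 9 genes in each library, with symbols for replicates 1 to 3 and the mean and SD of each group in black. GPD2 libraries of both knockdowns lie at 39.98 to 47.52 CPM against 77.65 to 85.59 in siNTC, SLC2A3 is highest in the 3 siTBX2-AS1 libraries, and HK2 and KDM3A are highest in the 3 siTBX2 libraries.

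Stretches of 3′ UTRs are shown because an earlier analysis of these data had picked 2 sequences of 7 bases that were frequent in genes called lower, CAGAATG for siTBX2 and TTAAACT for siTBX2-AS1. Their shares among called genes therefore only describe that choice. CAGAATG was present in 47.0% of 134 genes called lower in siTBX2, against 17.2% of 13015 genes with a UTR searched and 15.4% of 136 called higher. TTAAACT was present in 65.9% of 463 genes called lower in siTBX2-AS1, against 20.3% of those searched and 10.2% of 295 called higher. The shares are not adjusted for UTR length. Its median was 2384 bases in genes called lower in siTBX2 and 2225 in those called lower in siTBX2-AS1, against 1360 in all genes searched. In genes called higher it was 1323.5 and 1510, and in the 39 genes 1144. Windows of 29 bases from GENCODE release 29 transcripts follow for GPD2 and PDK1, which carry both, and for EPAS1, with the 7 letters in capitals. These genes were picked by name and have negative fold changes in siTBX2-AS1. The other carriers, named below, have no window.
GPD2, CAGAATG: cttttgatacaCAGAATGagctgcatgca
PDK1, CAGAATG: attatggaattCAGAATGtgacagttata
GPD2, TTAAACT: gtcttagttttTTAAACTggcacataaaa
PDK1, TTAAACT: cccaagaaaatTTAAACTttttctctcta
EPAS1, TTAAACT: tcgtttcttttTTAAACTaatcaccatat
These start at bases 3126 and 1458 of the 3485-base GPD2 UTR, at 4248 and 2299 of the 12700-base PDK1 UTR and at 496 of the 2043-base EPAS1 UTR. Of the 39 tested genes, 4 held CAGAATG (GPD2, PDK1, PFKFB4 and HK2) and 5 held TTAAACT (GPD2, PDK1, EPAS1, BNIP3L and KDM3A, the last at 2 places), shares of 10.3% and 12.8% that lie below those of all genes searched. HK2 carried CAGAATG and rose in siTBX2, and PFKFB4 carried it with a value of -0.25 there. KDM3A and BNIP3L carried TTAAACT with values of 0.10 and 0.39 in siTBX2-AS1. GPD1L carried neither. The siRNA sequences are not given in the sources used here, and the part of these letters in the values of GPD2, PDK1 and EPAS1 was not tested.

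HIF1A, the oxygen-regulated subunit of HIF-1, was at 242.7, 244.7 and 223.9 CPM in siNTC, 253.3, 234.3 and 210.7 CPM in siTBX2 and 225.7, 250.1 and 265 CPM in siTBX2-AS1. The groups overlapped, with fold changes of -0.03 (SE 0.09, adjusted p = 0.931) and 0.06 (SE 0.09, adjusted p = 0.804) in edgeR. EPAS1, the HIF-2 subunit, was at 41.64, 27.96 and 14.85 CPM in siNTC, 37.24, 28.46 and 16.38 CPM in siTBX2 and 14.68, 10.4 and 5.432 CPM in siTBX2-AS1 (ENSG00000116016.9, plus strand of chromosome 2 from 46293667 to 46386703). Each siTBX2-AS1 library lay below all 6 others, by little for replicate 1, and in every group the library numbered 1 was highest and that numbered 3 lowest. In the edgeR fit, which leaves out the replicate number, EPAS1 was not called in siTBX2-AS1 (-1.46, SE 0.48, adjusted p = 0.145). It was called there with DESeq2 and with the replicate number as a block, and in none of the 9 fits without 1 library. The value of EPAS1 in siTBX2 was -0.04 (SE 0.47, adjusted p = 0.982 in edgeR). EPAS1 made up 10.6% ± 3.77 of the summed FPKM of both subunits in siNTC, 11.4% ± 4.46 in siTBX2 and 4.19% ± 0.904 in siTBX2-AS1 (exact permutation p = 0.1 for siTBX2-AS1 against either group, the smallest possible). RNA levels do not report HIF protein, which oxygen controls after translation.

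**Figure D4:**
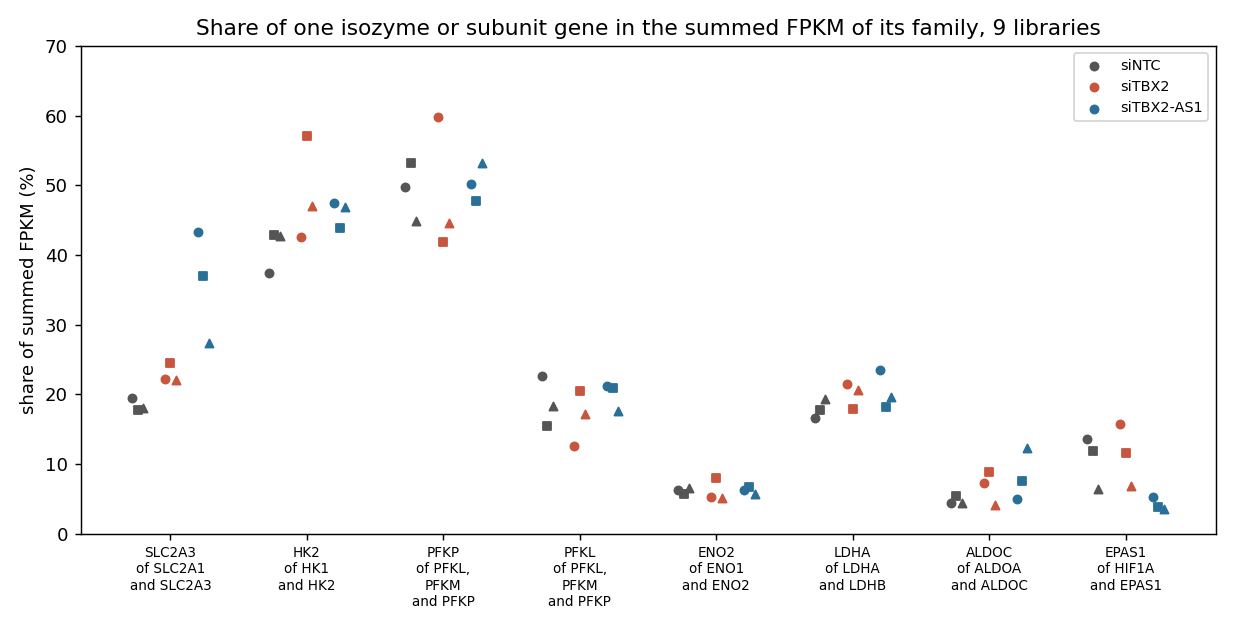
Share of 1 gene in the summed FPKM of its family in each library, in percent; circles, squares and triangles are replicates 1, 2 and 3. SLC2A3 is at 27.3 to 43.3% in siTBX2-AS1 against 17.8 to 19.5% in siNTC, EPAS1 is lowest in siTBX2-AS1, and the phosphofructokinase, enolase and lactate dehydrogenase shares overlap between groups.

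KDM3A, a histone H3 lysine 9 demethylase that uses oxygen and is itself a HIF target, was at 51.33, 59.97 and 50.24 CPM in siNTC, 81.6, 77.58 and 70.65 CPM in siTBX2 and 54.84, 58.23 and 60.28 CPM in siTBX2-AS1 (ENSG00000115548.12, plus strand of chromosome 2 from 86440647 to 86492716). The siTBX2 libraries stood above all others. KDM3A rose in siTBX2 by 0.51 (SE 0.10, adjusted p = 0.0451 in edgeR) and was lower in siTBX2-AS1 than in siTBX2 (-0.41, SE 0.10, adjusted p = 0.0479). Both calls sit at the threshold. The first was lost without any 1 of the 9 libraries (adjusted p from 0.0529 to 0.169), and the second was kept only without siNTC replicate 2. Neither was made by limma on FPKM. EGLN1, the main oxygen sensor among the prolyl hydroxylases, was at 76.21 to 83.1 CPM in siNTC, 90.74 to 100.9 in siTBX2 and 85.67 to 95.27 in siTBX2-AS1, without overlap with siNTC (0.25, adjusted p = 0.159, and 0.20, adjusted p = 0.207). EGLN3, a hydroxylase that hypoxia induces, had fold changes of -0.06 and 0.10.

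None of the 8 other tested hypoxia targets was called. VEGFA, the endothelial growth factor, was at 11.62, 13.58 and 11.07 CPM in siNTC, 14.11, 8.53 and 6.929 CPM in siTBX2 and 16.94, 21.06 and 11.86 CPM in siTBX2-AS1. Its groups overlapped (-0.29, adjusted p = 0.697, and 0.46, adjusted p = 0.462, in edgeR). BNIP3L, a mitophagy receptor, was at 126.1, 63.45 and 146.4 CPM in siNTC, 153, 160.6 and 167 CPM in siTBX2 and 132.8, 147.3 and 161.3 CPM in siTBX2-AS1. The siTBX2 libraries lay above siNTC, in which replicate 2 was far lower than the other two (0.52, SE 0.26, adjusted p = 0.374). Its relative BNIP3 had fold changes of -0.21 and -0.11. ANKRD37 was at 2.355, 1.578 and 2.67 CPM in siNTC, 3.289, 2.222 and 3.991 CPM in siTBX2 and 3.458, 2.936 and 4.035 CPM in siTBX2-AS1. The last group lay above siNTC (0.66, SE 0.27, adjusted p = 0.246). NDRG1 was at 7.633, 7.728 and 5.363 CPM in siNTC, 9.166, 6.977 and 6.38 CPM in siTBX2 and 8.248, 9.389 and 8.381 CPM in siTBX2-AS1, with the siTBX2-AS1 libraries above siNTC (0.33, SE 0.19, adjusted p = 0.427). P4HA1 and P4HA2, collagen prolyl hydroxylases, had fold changes of 0.03 to 0.34, and ADM, a vasodilator peptide with 4 to 43 counts per library, -0.30 and 0.64. Both ADM values changed sign with single libraries, over -1.48 to 0.54 and -0.24 to 1.48.

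Other genes of the same pathways were counted from 3 lists, also chosen with earlier results of these data known. Calls on these lists were not followed gene by gene through the fits without 1 library. In those fits, calls over all genes in siTBX2 numbered 44 to 177, in place of 295. Of 53 further genes of glycolysis, glucose transport and pyruvate, 39 were tested. None was called in siTBX2 by edgeR, with 7 at an unadjusted p under 0.05, against 16% of all tested genes. In siTBX2-AS1, 3 fell (7.69% of the 39, against 2.78% of all tested genes that fell and 4.57% called in either direction) and none rose: PGM2, a phosphopentomutase (-0.71, adjusted p = 0.00497), PDHX, a structural subunit of pyruvate dehydrogenase (-0.90, adjusted p = 0.0194), and PDP1, the phosphatase that reactivates pyruvate dehydrogenase (-0.68, adjusted p = 0.032). PDHX was at 36.9 ± 7.34 CPM in siNTC and 19.7 ± 0.751 in siTBX2-AS1, and PDP1 at 81.2 ± 5.22 and 50.6 ± 9.53 CPM (SD, n = 3). These 3 genes were also lower in siTBX2-AS1 than in siTBX2 (-0.95, -0.76 and -0.65), while PGM2L1, which makes glucose 1,6-bisphosphate, and SLC2A10, a transporter of the glucose family, were higher there (0.94 and 0.75). Between the knockdowns the calls were thus 2 higher and 3 lower of 39 (12.8%, against 5.53% of all tested genes). The median of the 39 was 0.05 in siTBX2 and -0.06 in siTBX2-AS1. PGM2, PDHX and PDP1 each held TTAAACT once in the 3′ UTR. These letters had been picked as frequent in genes called lower in siTBX2-AS1, of which 65.9% held them. Their presence in the 3 genes therefore only describes that choice. The part of the letters in the fall of these genes was not tested.

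Of 23 partners and regulators of HIF, all tested, SIAH2, a ubiquitin ligase that targets prolyl hydroxylases for degradation, rose in siTBX2 (0.59, adjusted p = 0.0352 in edgeR) and in siTBX2-AS1 (0.49, adjusted p = 0.0319). HSP90AB1, a chaperone that binds HIF1A among many clients, fell in siTBX2-AS1 (-0.39, adjusted p = 0.00556) and was lower there than in siTBX2 (-0.59). The calls were 1 of 23 in siTBX2 (4.35%, against 1.61% of all tested genes) and 2 of 23 in siTBX2-AS1 (8.7%, against 4.57%), and the list's medians were 0.10 and 0.17. Between the knockdowns 1 of 23 was called (4.35%, against 5.53%). Of 47 other hypoxia-induced genes, 43 were tested. WSB1, an adaptor of a ubiquitin ligase, rose in siTBX2 (0.62, adjusted p = 0.0326), and PLOD2, a collagen lysyl hydroxylase (-0.50, adjusted p = 0.0497), and TMEM45A (-1.07, adjusted p = 0.0384) fell. PLOD2 also fell in siTBX2-AS1 (-0.50, adjusted p = 0.0285), the one call of that list there. The list's calls were 3 of 43 in siTBX2 (6.98%, against 1.61%) and 1 of 43 in siTBX2-AS1 (2.33%, against 4.57%). TMEM45A and PAM, an enzyme that amidates peptides, were higher in siTBX2-AS1 than in siTBX2 (1.03 and 0.58). These were 2 of 43 (4.65%, against 5.53% of all tested genes). PLOD2 held TTAAACT once in its 3′ UTR, and HSP90AB1 and SIAH2 did not. Of the genes called in siTBX2, PLOD2 and TMEM45A, which fell, held no CAGAATG. SIAH2 and WSB1, which rose, held none either. The medians of the 43 were 0.01 in siTBX2 and -0.02 in siTBX2-AS1.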

How the data were processed

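Total RNA of 9 cultures was made into stranded libraries after depletion of ribosomal RNA, per the labels' protocols. FastQC, STAR (2.4.2a), StringTie (1.3.3) and the build hg19 are the tools and build named in the submitters' processing notes. The annotation, the counting program and any use of strand in counting are among the steps not given in the sources used here. Each table is per gene: the tables that the authors deposited hold expected counts per gene, already whole numbers and not scaled, and FPKM, scaled by the authors to transcript length and mapped fragments. Symbols were joined by gene ID, and positions were looked up in the GRCh38 annotation of GENCODE release 29, a later build than that of the files.

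The counts were tested in R 4.3.3 with edgeR 4.0.16 (filterByExpr, TMM, robust quasi-likelihood F test) on all 9 libraries, after a check on simulated data. DESeq2 1.42.0, limma 3.58.1 and other scalings, filters and sample choices were alternatives. Shares of FPKM were tested by exact permutation of the libraries, two-sided (scipy 1.17.1). Replicates are biological per the labels, which do not say whether they were grown or processed on separate days. Chi-square per gene between replicates was 46.8 to 73.3, so replicates of a group differed by more than counting error; pairs across groups were not compared this way.

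All 40 genes are named by role. Every library is given for called genes, for HIF1A, EPAS1, SLC2A1, LDHA and VEGFA, and for genes whose knockdown libraries did not overlap siNTC with an absolute log2 fold change of at least 0.3; of the other lists the called genes are named. The genes, lists and 7-base sequences were chosen with earlier results of these data known. Promoters come from RefSeq (GRCh38.p14), and 3′ UTRs from 1 GENCODE transcript per gene, the protein-coding one with the longest 3′ UTR.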

Additional observations from a re-analysis of the deposited data

How the results depend on the processing

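Of 2336 log2 fold changes of the 39 genes recomputed under alternatives, 2118 kept their sign and their side of the threshold, 56 were no longer called, 30 became called and 132 had the other sign. Called genes among the 40 numbered 3 in siTBX2, but 5 with DESeq2 (PDK1 and GPD1L added), 1 with only the 2 groups compared, 1 with limma on FPKM at either pseudocount (0.1 or 1) and 0 with limma on FPKM without a filter, and 1 to 3 without 1 library. In siTBX2-AS1 they numbered 2, but 7 with DESeq2, 1 with limma on FPKM without a filter, and 2 to 3 without 1 library. With limma on FPKM at either pseudocount they numbered 3 there (PDK1 added). For siTBX2-AS1 against siTBX2 they numbered 3, but 7 with DESeq2, 1 without a count filter, 1 with only the 2 groups, 1 with limma on FPKM at either pseudocount and 0 without a filter, and 0 to 3 without 1 library. Over all genes the counts of 295, 840 and 1015 became 1201, 1802 and 2168 with DESeq2, 30, 320 and 405 with limma on log2(FPKM + 0.1), 31, 309 and 393 on log2(FPKM + 1), and 1, 121 and 156 without a filter. The first became 184 without a count filter, and the first and second 52 and 461 with only the 2 groups. Without 1 library they were 44 to 177, 402 to 654 and 469 to 918. The median of the 39 genes in siTBX2-AS1 became 0.059 with limma on log2(FPKM + 1) and was 0.068 to 0.156 without 1 library; between the knockdowns it became 0.11 with upper-quartile scaling and was 0.048 to 0.097 without 1 library, and in siTBX2 it was -0.036 to 0.064.

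The 132 values with the other sign belong to 44 of the 117 gene and comparison pairs, none of them called here or in the alternative, and 11 of the 132 had moved by over 1 SE. The cause was not tested. In siTBX2, without 1 library, the values ran from -1.48 to 0.54 for ADM, -0.12 to 0.062 for ALDOC, -0.17 to 0.049 for EGLN3, -0.046 to 0.045 for ENO1, -0.36 to 0.35 for EPAS1, -0.020 to 0.036 for GAPDH, -0.054 to 0.10 for GPI and -0.11 to 0.042 for HIF1A. They ran from -0.067 to 0.23 for NDRG1, -0.080 to 0.10 for P4HA1, -0.062 to 0.14 for P4HA2, -0.016 to 0.55 for PFKFB3, -0.16 to 0.019 for PFKP, -0.39 to 0.30 for PGAM1, -0.33 to 0.064 for SLC16A3 and -0.033 to 0.054 for TPI1. In siTBX2-AS1, without 1 library, the values ran from -0.24 to 1.48 for ADM, -0.0053 to 0.22 for EGLN3, -0.042 to 0.0063 for ENO1, -0.015 to 0.14 for GAPDH, -0.054 to 0.12 for GPI, -0.0074 to 0.10 for HIF1A and -0.026 to 0.16 for HK1. They ran from -0.080 to 0.097 for LDHA, -0.046 to 0.12 for P4HA1, -0.39 to 0.17 for PFKFB3, -0.00067 to 0.17 for PFKP, -0.090 to 0.59 for PGAM1 and -0.031 to 0.29 for SLC16A3. Between the knockdowns, without 1 library, the values ran from -0.40 to 0.25 for ALDOA, -0.067 to 0.33 for ANKRD37, -0.062 to 0.045 for ENO1, -0.022 to 0.13 for GAPDH, -0.0057 to 0.12 for GPD2, -0.078 to 0.089 for GPI and -0.18 to 0.040 for HK1. They ran from -0.053 to 0.11 for P4HA1, -0.037 to 0.15 for PDK1, -0.020 to 0.041 for PFKM, -0.049 to 0.66 for PGAM1, -0.10 to 0.071 for PKM and -0.032 to 0.18 for SLC2A1. With limma on log2(FPKM + 0.1) the value became ALDOC 0.023, ENO2 -0.022, EPAS1 0.093, GAPDH -0.089 and P4HA2 -0.13 in siTBX2, and ENO1 0.021 and HK1 -0.018 in siTBX2-AS1, and GPD1L -0.16, PDK1 -0.50 and PKM 0.055 between the knockdowns. With limma on log2(FPKM + 1), filtered or not, the value became ALDOC 0.020, ENO2 -0.022, EPAS1 0.074, GAPDH -0.089 and P4HA2 -0.12 in siTBX2, and ENO1 0.021 and HK1 -0.017 in siTBX2-AS1, and GPD1L -0.13, PDK1 -0.40 and PKM 0.055 between the knockdowns. With upper-quartile scaling the value became ENO1 -0.018 and TPI1 -0.012 in siTBX2, and ENO1 0.018 and GPI 0.019 between the knockdowns. With DESeq2 size factors or the DESeq2 test the value became ENO1 -0.0049 in siTBX2. With at least 1 CPM in 3 libraries the value became ENO1 -0.011 and TPI1 -0.0044 in siTBX2. With limma-voom the value became ENO1 -0.00052 in siTBX2, and PFKFB3 0.021 in siTBX2-AS1. With only the 2 groups compared the value became ENO1 -0.016 and TPI1 -0.0088 in siTBX2.

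Same-numbered libraries correlated at 0.0728 to 0.243 after group means were removed, 8 of 9 pairs over 0.1, and each library correlated best with its own number, a hint from the data that the labels do not state. With the replicate number as a block (replicate block), calls over all genes were 873, 1741 and 2084, and among the 40 genes 4 (PDK1 added), 6 (SLC2A3, PDK3, HK2 and ANKRD37 higher, GPD2 and EPAS1 lower) and 6. The last 6 were SLC2A3 and PFKL, higher in siTBX2-AS1 than in siTBX2, and LDHB, KDM3A, EPAS1 and HK2, lower. EPAS1 was at -1.46 in siTBX2-AS1 (SE 0.085, adjusted p = 0.00218 in edgeR) and -1.46 against siTBX2 (adjusted p = 0.00148) with the block. Signs turned with it for ENO1 -0.00082, EPAS1 0.0019 and PGAM1 0.12 in siTBX2. Low counts limit what can be read from CA9 and ADM, and 3 libraries a group limit every exact test to p = 0.1.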
